A study of Mus musculus with 12 samples.

Results

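Livers of mice injected with siSTAT3 iExos were compared with livers of mice injected with siCntrl iExos. The comparison took 6 of the 12 liver libraries of the study, 3 in each group, picked by their labels alone, and all genes of the count table. All the mice were BALB/c, and those of both groups had received iExos, taken here to be exosomes, small vesicles shed by cells, because the series title speaks of them and of liver fibrosis. Small interfering RNA, for which si is the usual prefix, is a short double-stranded RNA that directs the cutting of a matching mRNA, so siSTAT3 is read as directed against Stat3 and siCntrl as its control. The other libraries, 3 from mice injected with mASO STAT3 iExos and 3 from mice injected with mASO Scrbl iExos, shared the estimate of the spread and served for 1 test of the difference between the siRNA and the mASO comparison. Age, sex, dose, timing, the cells that made the vesicles and any injury of the livers are not in the labels used here. Nothing in the labels ties each replicate to its own mouse, so the p-values measure only the spread between these samples and that spread may be technical.

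STAT3 is a transcription factor that waits in the cytoplasm until a cytokine of the interleukin 6 family binds a receptor containing gp130. Janus kinases on the receptor then phosphorylate it, and it moves to the nucleus and switches on its target genes until SOCS proteins silence the receptor. In hepatocytes it is known for driving the acute phase genes, whose products pour into the blood during inflammation while albumin and other routine plasma proteins decline. In a fibrotic liver, stellate cells turn into contractile myofibroblasts that lay down collagen, and injured hepatocytes are known to lose part of their metabolic enzymes and to take on features of immature or dividing cells.

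The 6 libraries held 39844158 to 67791159 counts each. Composition factors (TMM, a scaling that assumes most genes do not change) were 0.810 to 0.841 in siSTAT3 and 1.11 to 1.26 in siCntrl. In a principal component analysis of log2 CPM the leading axis, with 69% of the variance, separated the groups, and the next, with 12.3%, set siSTAT3 2 apart, with a score of −58.5 against 26 and 32.5 in the other siSTAT3 libraries. Hepatocyte markers were high in all 6 libraries, with albumin (Alb) at 35365 to 105621 CPM and the urea cycle gene Cps1 at 1220.5 to 4728 CPM, as the label liver requires. CPM is the count scaled to a fixed TMM-adjusted library total. Values below are for siSTAT3 first and siCntrl second, means are ± SD (n = 3), log2 fold changes are siSTAT3 minus siCntrl ± SE, and a gene said to rise or fall by a number did so by that much on the log2 scale. A gene is said to have risen or fallen only where edgeR's quasi-likelihood test gave a Benjamini-Hochberg adjusted p under 0.05 over all genes. In a bulk liver sample, fewer cells of a type and less RNA per cell cannot be told apart.

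Livers labelled siSTAT3 differed from livers labelled siCntrl over close to the whole range of liver functions. Of 15720 genes tested, 3515 rose and 3675 fell, so that 22.4% were called higher and 23.4% lower, 45.7% in all. Changes over 2-fold were 1718 rises (10.9% of the genes tested) and 2242 falls (14.3%). In 53.0% of the genes the 3 values of one group lay wholly above the 3 of the other, with siSTAT3 above in 25.5% and below in 27.5%. The counts for gene groups below are to be read against these shares. Lists and members were chosen with earlier results of these data known, so a count above a share describes the list and tests nothing. Scaled by library totals without composition factors, 1655 genes rose and 7266 fell, so that 18.6% of the calls were rises in place of 48.9%, and the median log2 fold change of all genes was −0.53 in place of −0.04. Changes are therefore given relative to the composition-scaled level. Leaving out siCntrl 2 or any other of the 6 libraries left 2934 to 3267 rises and 3046 to 3400 falls.

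**Figure D1:**
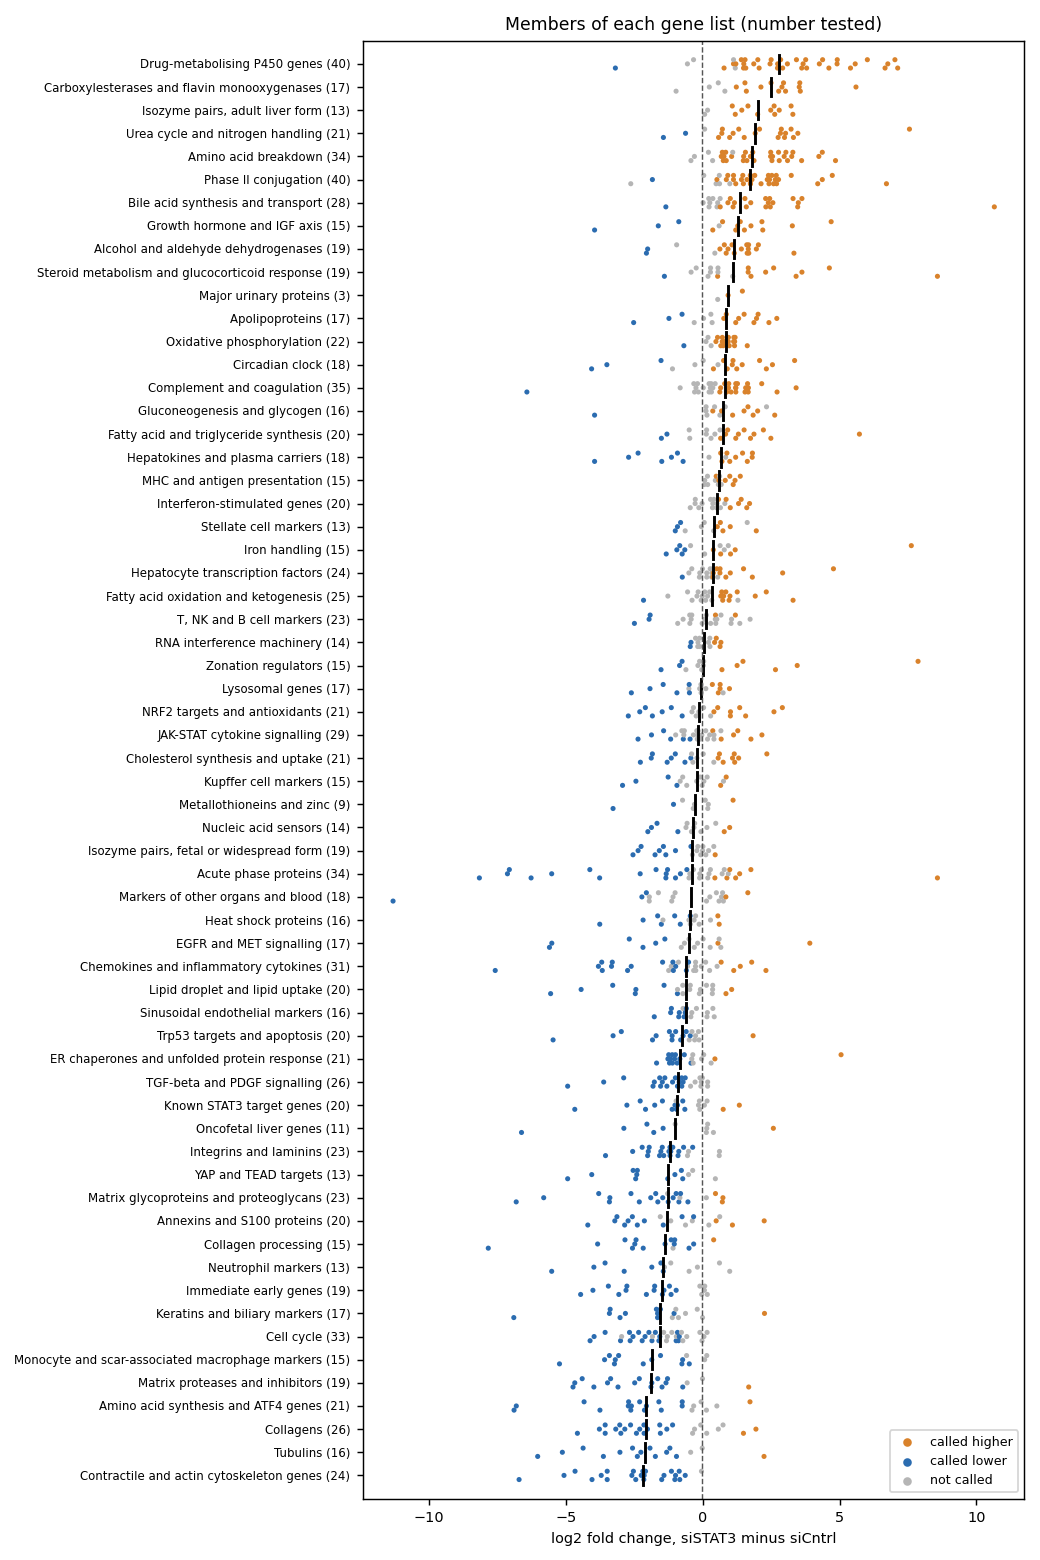
Log2 fold change (siSTAT3 minus siCntrl, horizontal axis) of every tested member of the 62 gene lists, 1 row per list, ordered by the list's median (black bar); coloured points passed edgeR's test, grey points did not, and the dashed line is the median of all 15720 genes. Amino acid synthesis, tubulin, collagen and contractile genes lie at the low end, P450 and esterase genes at the high end.

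**Figure D2:**
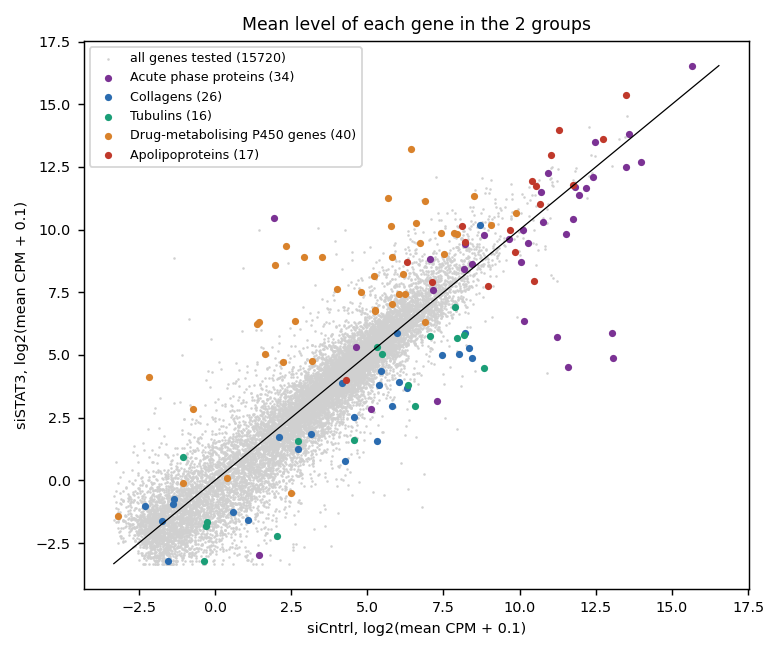
Mean level of each gene in siCntrl (horizontal axis) and siSTAT3 (vertical axis), both as log2 of mean CPM plus 0.1, with the line of equal levels; grey points are the 15720 genes tested and coloured points the members of 5 lists. Collagens and tubulins lie mostly below the line, P450 genes mostly above it, and acute phase genes on both sides with the larger part below.

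Stat3 itself is reported first, because a fall of the targeted mRNA would check the labels. It stood at 91.5, 116 and 122 CPM in siSTAT3 and 106, 121 and 111 CPM in siCntrl. The groups overlapped, and the lowest and the highest of the 6 values were both siSTAT3 libraries. The log2 fold change was −0.03 ± 0.14 (edgeR adjusted p = 0.868; 95% interval −0.34 to 0.27), and exact permutation of the 6 log2 CPM values, two-sided, gave p = 0.9, with 0.1 the lowest p a design of 3 against 3 can reach. Without siCntrl 2 the value was 0.02 and without siSTAT3 1 it was 0.08, so its sign rests on single libraries, and scaling by library totals gave −0.54 (edgeR adjusted p = 0.00446). Stat3 mRNA therefore does not check which livers received which load, and every direction below rests on the labels. Total mRNA says nothing about STAT3 protein or its phosphorylation, which these libraries do not measure.

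Receptor genes of signalling through Janus kinases went in different directions. Il6st, the gene of gp130, which receptors of the interleukin 6 family share, fell (113 ± 15.6 against 156 ± 16.1 CPM, −0.46 ± 0.14). Osmr, the oncostatin M receptor gene, stood at 3.33, 4.27 and 3.5 CPM in siSTAT3 and 10.2, 17.9 and 12.6 CPM in siCntrl. All 3 siSTAT3 values lay below all 3 siCntrl values, a change of −1.87 ± 0.24 (edgeR adjusted p = 3.67e-05). Il22ra1 and Il10rb, which form the receptor for interleukin 22, fell by 2.37 and 1.43. Lifr, the leukaemia inhibitory factor receptor gene, rose instead (212 ± 41.5 against 97.2 ± 13.3 CPM, 1.13 ± 0.23), and so did Ghr, the growth hormone receptor gene (498 ± 70.3 against 111 ± 23 CPM, 2.16 ± 0.20). The Janus kinase gene Jak1 was at 104 ± 17.8 against 119 ± 7.91 CPM and did not pass. With library totals Jak1 was called lower (edgeR adjusted p = 0.00128). Of the feedback genes, Socs2, a target of growth hormone signalling, rose (1.76 ± 0.24) and Ptpn11, which encodes the phosphatase SHP2, fell (−0.71 ± 0.18). Socs3, the feedback gene most tied to STAT3, had 5.88, 13.7 and 11.9 CPM in siSTAT3 and 9.61, 24.8 and 15.6 CPM in siCntrl. Its groups overlapped and it was not called (edgeR adjusted p = 0.117), except without siCntrl 1 (edgeR adjusted p = 0.0245) or with library totals (0.0121). Of the 29 members of this list, 6 rose and 6 fell, shares close to the 22.4% and 23.4% of all genes. With library totals 3 higher and 16 lower were called. With no filter on low counts 3 rose.

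Of 20 genes listed as known STAT3 targets outside the acute phase proteins, 12 fell and 2 rose. Junb, a subunit of the AP-1 factor, was at 16, 34.8 and 30.9 CPM in siSTAT3 and 68.8, 83.8 and 74 CPM in siCntrl. Cebpd, a transcription factor gene of the acute phase, was at 4.13, 3.81 and 5.65 CPM in siSTAT3 and 6.14, 17.7 and 21.9 CPM in siCntrl. In neither gene did the groups overlap, and the changes were −1.47 ± 0.22 and −1.75 ± 0.37. Il1rn, the interleukin 1 receptor antagonist gene, fell (7.1 ± 4.12 against 34.4 ± 11.8 CPM, −2.29 ± 0.46), as did Icam1, an adhesion molecule gene (−1.01 ± 0.16), and Bcl2l1, the survival gene for BCL-XL (−1.12 ± 0.16). Vegfa, the vascular growth factor gene, rose (151 ± 38.2 against 59.9 ± 5.18 CPM, 1.34 ± 0.20). Mcl1, a survival gene of the same family as Bcl2l1, was at 131 ± 16.4 against 146 ± 18.9 CPM and did not pass. With library totals Mcl1 was called lower (edgeR adjusted p = 0.0021).

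Genes of the acute phase included the 4 largest losses of mean CPM in the comparison, those of Hpx, Saa2, Saa1 and Hp. Saa1, a serum amyloid A gene of acute inflammation, stood at 41.6, 77.5 and 58.3 CPM in siSTAT3 and 4318, 8079.9 and 12582 CPM in siCntrl. The lowest siCntrl value was 55.7 times the highest siSTAT3 value, and the change was −7.14 ± 0.90 (edgeR adjusted p = 9.49e-05). Its neighbour Saa2 fell by 8.16, while Saa4, the form that is made at all times, rose (449 ± 58.6 against 133 ± 12 CPM, 1.76 ± 0.15). Reads of Saa1 and Saa2, which are close copies, may have been split or shared in counting. Lcn2, whose product lipocalin 2 withholds iron from bacteria, was at 33.4, 76.2 and 47.2 CPM in siSTAT3 and 1428, 2744 and 3024 CPM in siCntrl and fell by 5.52. Every siSTAT3 value lay below every siCntrl value, by 18.7-fold at the nearest. Cd14, part of the receptor for bacterial endotoxin, fell by 4.13. Orm1, an orosomucoid gene, fell by 1.71, the haem binder gene Hpx by 1.29, the serum amyloid P gene Apcs by 1.35 and the haptoglobin gene Hp by 1.0. Cp, the ceruloplasmin gene, fell by 1.33. Hp and Hpx still stood at 5811 against 11582 CPM and 6611 against 16112 CPM, a high level in both groups. The fibrinogen genes Fga and Fgb were at 3248 against 4598 CPM and 4342 against 5485 CPM and did not pass. Both were called lower without siCntrl 3 (edgeR adjusted p = 0.0261 and 0.03) and with library totals (0.00283 and 0.00602). Of 26 genes that rise in an acute phase response, 15 fell and 2 rose. Of 8 that decline in one, 5 rose, among them albumin (95245 ± 9629 against 51591 ± 15599 CPM, 0.88 ± 0.25, and 0.41 with edgeR adjusted p = 0.109 under library totals), the retinol carrier gene Rbp4 (1.35 ± 0.15) and Serpina6, the gene of the corticosteroid carrier, by 8.58. With library totals the counts over all 34 were 4 higher and 21 lower.

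**Figure D3:**
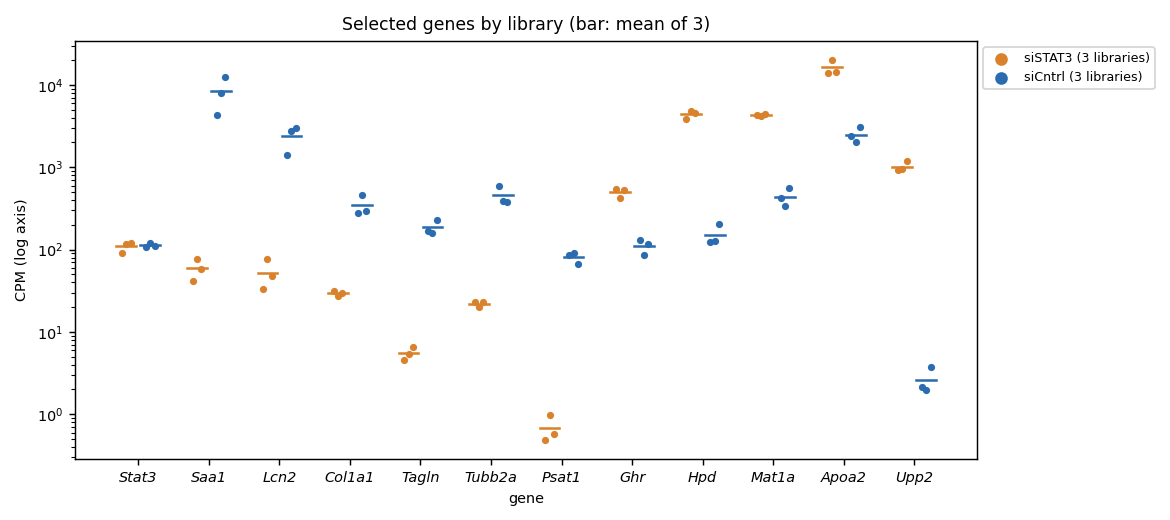
CPM in each library (vertical axis, logarithmic) of 12 genes from the groups described, siSTAT3 (orange) and siCntrl (blue), 1 point per library with a bar at the mean of 3. Except for Stat3, whose points overlap, the groups of each gene are separate, with the siSTAT3 values lower for Saa1, Lcn2, Col1a1, Tagln, Tubb2a and Psat1 and higher for Ghr, Hpd, Mat1a, Apoa2 and Upp2.

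Promoter sequences were searched for letters that transcription factors of these pathways bind, because many acute phase genes fell and many hepatocyte enzyme genes rose. RefSeq promoters (build GRCm38.p6, 250 bases before to 50 after the start) were found for 10908 of the 15720 genes, and the 8698 genes with a single promoter were used. The STAT palindrome TTCNNNGAA, searched on both strands like all motifs here, was in 7.04% of these promoters. It was in 6.38% of the 1253 promoters of genes that fell over 2-fold, 7.51% of the 905 that rose over 2-fold and 7.1% of the 4636 that were not called. The AP-1 motif TGANTCA was in 7.5% of promoters of genes that fell over 2-fold, 5.75% of those that rose and 5.16% of all. The HNF4 motif CAAAGTCCA was in 1.66% of promoters of genes that rose over 2-fold (15 promoters), 0.239% of those that fell (3) and 0.552% of all (48). TATAAA, the core of the TATA box, was in 12.6% of promoters of genes that rose over 2-fold, 9.1% of those that fell and 8.05% of all. The TEAD motif GGAATG was in 13.8% of promoters of genes that rose over 2-fold, 14.8% of those that fell and 1045 of all 8698. The E-box CACGTG was in 11.4% of promoters of genes that rose over 2-fold, 7.58% of those that fell and 9.93% of all. Those sets also differed in base composition, with a median GC content of 57.0% for genes that rose, 60.3% for those that fell and 60.7% for all. A match is a description of the letters only.

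Examples are shown of the STAT, AP-1 and HNF4 letters in genes described in the text, as the 250 bases before the start read 5′ to 3′ along the gene, with the motif in capitals. Apcs and Icam1, which fell, and Prodh, the first enzyme gene of proline breakdown, which rose, all hold the STAT letters, starting 244, 42 and 57 bases before the start. Anxa2 and S100a11, which encode an annexin and an S100 protein and fell, hold the AP-1 letters, at 95 bases in Anxa2 and at 136 and 38 bases in S100a11. Cyp8b1, the sterol 12-hydroxylase gene of bile acid synthesis, which rose, holds the HNF4 letters at 67 bases. Positions are chr1:172895055-172895304 (minus strand) for Apcs, chr9:21015690-21015939 (plus) for Icam1, chr16:18089191-18089440 (minus) for Prodh, chr9:69453433-69453682 (plus) for Anxa2, chr3:93520246-93520495 (plus) for S100a11 and chr9:121916306-121916555 (minus) for Cyp8b1.
Apcs: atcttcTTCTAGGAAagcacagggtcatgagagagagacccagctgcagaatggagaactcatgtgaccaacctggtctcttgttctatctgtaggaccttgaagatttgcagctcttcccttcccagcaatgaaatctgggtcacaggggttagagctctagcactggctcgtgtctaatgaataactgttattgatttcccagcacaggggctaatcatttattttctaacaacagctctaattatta
Icam1: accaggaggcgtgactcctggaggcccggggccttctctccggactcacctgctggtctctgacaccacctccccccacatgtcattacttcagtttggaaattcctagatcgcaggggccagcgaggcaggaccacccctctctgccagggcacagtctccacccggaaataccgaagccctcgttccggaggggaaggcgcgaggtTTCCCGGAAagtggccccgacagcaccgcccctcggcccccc
Prodh: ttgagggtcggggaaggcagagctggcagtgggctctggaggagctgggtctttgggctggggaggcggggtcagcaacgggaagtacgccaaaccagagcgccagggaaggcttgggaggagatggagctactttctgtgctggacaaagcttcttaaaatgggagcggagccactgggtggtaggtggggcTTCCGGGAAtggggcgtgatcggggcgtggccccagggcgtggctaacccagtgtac
Anxa2: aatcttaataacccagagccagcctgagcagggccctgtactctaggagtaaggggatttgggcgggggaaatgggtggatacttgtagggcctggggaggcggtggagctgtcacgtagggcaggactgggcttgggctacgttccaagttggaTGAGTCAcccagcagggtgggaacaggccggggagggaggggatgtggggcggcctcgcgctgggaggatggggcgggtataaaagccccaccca
S100a11: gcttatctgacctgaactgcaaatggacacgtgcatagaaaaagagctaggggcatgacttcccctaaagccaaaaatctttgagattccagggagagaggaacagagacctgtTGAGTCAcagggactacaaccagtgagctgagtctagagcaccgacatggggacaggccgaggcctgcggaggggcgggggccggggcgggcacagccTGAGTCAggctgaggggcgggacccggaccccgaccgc
Cyp8b1: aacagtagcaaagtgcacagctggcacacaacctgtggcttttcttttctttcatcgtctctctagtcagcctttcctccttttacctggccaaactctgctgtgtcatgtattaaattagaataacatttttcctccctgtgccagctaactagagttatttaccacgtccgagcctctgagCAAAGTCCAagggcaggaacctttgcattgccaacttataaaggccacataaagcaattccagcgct
Apcs in these livers was at 400.2, 474 and 365 CPM in siSTAT3 and 1008, 907 and 1239 CPM in siCntrl. Icam1 was at 12, 10.2 and 12.3 CPM in siSTAT3 and 23.9, 25.4 and 20.5 CPM in siCntrl. Prodh, in the other direction, was at 349, 406 and 273 CPM in siSTAT3 and 13.8, 21 and 19.5 CPM in siCntrl. In each of these genes with the STAT letters the groups did not overlap, as in 53.0% of all genes tested. They are picked examples, so they do not count how often such genes fell or rose. Cyp8b1 was at 379.5, 356 and 335 CPM in siSTAT3 and 59.4, 21.8 and 27.4 CPM in siCntrl, again without overlap.

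Most tested collagen genes fell in each class, but the summed levels of the classes differed in direction. For fibre-forming chains the sum was 153.9 to 176.4 CPM in siSTAT3 and 942.8 to 1355 CPM in siCntrl. Of 7 basement membrane chains 4 fell and 1 rose, and their sum was higher in siSTAT3 (1188 to 1262 against 832.2 to 972.8 CPM). Of 26 collagen genes tested, 18 fell, all of them over 2-fold, and 2 rose, with a list median of −2.08. Among the fibre-forming chains, Col1a1 stood at 31.3, 27 and 29.8 CPM in siSTAT3 and 282, 465 and 296 CPM in siCntrl. The siSTAT3 values were close together and the nearest siCntrl value was 9.01 times higher, a change of −3.57 ± 0.37. Its partner chain Col1a2 fell by 3.03, and Col5a2 and Col5a1, the chains that set fibre width, by 2.85 and 2.14. In basement membranes, Col4a1 fell (32.4 ± 4.7 against 258 ± 31.1 CPM, −2.99 ± 0.19) with Col4a2 (−2.42 ± 0.16) and Col15a1 (−3.78 ± 0.28). Col18a1, the endostatin precursor that hepatocytes also express, rose and was at 1192, 1122 and 1153 CPM in siSTAT3 and 459, 356 and 419 CPM in siCntrl. Its groups were apart the other way round, with every siSTAT3 value the higher, a change of 1.49 ± 0.15. Col6a3 of the beaded filaments (−2.64 ± 0.25) and Col12a1, which decorates fibres (−3.56 ± 0.22), fell.

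Enzymes that finish collagen fell with it. Of 15 tested, 13 fell and 1 rose. Loxl2, a lysyl oxidase that crosslinks collagen, was at 0.678, 0.0772 and 0.584 CPM in siSTAT3 and 6.48, 5.99 and 6.97 CPM in siCntrl. No values overlapped, and the change was −3.84 ± 0.46. Loxl1, which acts on elastic fibres, fell by 2.84, the hydroxylase genes Plod2 and P4ha2 by 2.57 and 2.17, and Serpinh1, the collagen chaperone HSP47, by 2.48. Of 14 matrix glycoproteins, 11 fell and 2 rose. Their summed level overlapped between the groups, at 4952 to 5976 CPM in siSTAT3 and 5303 to 6017 CPM in siCntrl. Thbs1, thrombospondin 1, which can activate latent TGF-beta, fell 56.2-fold (0.623 ± 0.208 against 35.9 ± 15.7 CPM). Tnc, tenascin C of wounds, fell by 3.8. Spp1, osteopontin, a matrix cytokine of bile duct cells and macrophages, was at 69, 121 and 83.1 CPM in siSTAT3 and 1058, 1347 and 502 CPM in siCntrl, and fell by 3.41, with groups 4.14-fold apart at their nearest values. Over glycoproteins and proteoglycans together library totals gave 0 higher and 18 lower of 23, in place of 3 and 17.

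Matrix proteases, which cut what these genes build, fell as well. Of 19 tested proteases and inhibitors, 16 fell and 1 rose. The plasminogen activator genes Plat and Plau fell by 4.41 and 3.48. Plau was at 1.54, 2.03 and 1.44 CPM in siSTAT3 and 13.4, 20.3 and 22.4 CPM in siCntrl, without overlap. Mmp14, a membrane-bound collagenase gene, fell (37.3 ± 3.27 against 138 ± 7.01 CPM, −1.89 ± 0.13), as did Mmp12, the macrophage elastase gene (−2.32 ± 0.38), and the inhibitor gene Timp2 (−1.29 ± 0.26). The member that rose was Mmp15, another membrane-bound protease gene (45.3 ± 4.17 against 14.1 ± 1.07 CPM, 1.68 ± 0.12).

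Cells hold the matrix through integrins and laminins, and 19 of 23 such genes fell. All 13 tested integrin genes fell, from Itgb1, the beta chain that many integrins share (146 ± 26.2 against 327 ± 4.98 CPM, −1.17 ± 0.14), to Itga6 (−2.56 ± 0.31) and Itga3 (−1.99 ± 0.13), which bind laminin. Lamc1, a laminin chain of most basement membranes, fell by 1.48. Of 24 contractile and actin genes, 23 fell. Tagln, the smooth muscle protein transgelin of myofibroblasts, was at 4.6, 5.43 and 6.6 CPM in siSTAT3 and 171, 159 and 228 CPM in siCntrl. The groups were 24-fold apart at their nearest values, and the change was −5.07 ± 0.23. Myl9, a myosin light chain of contraction, and Tpm2, a tropomyosin, fell by 3.49 and 3.49. General cytoskeleton genes followed at a smaller size: Actb, the cytoplasmic beta-actin often used as a reference gene, fell (587 ± 60.8 against 1566 ± 291 CPM, −1.42 ± 0.18), and the actin-binding genes Flna, Tagln2 and Tmsb10 fell by 2.53, 2.45 and 2.14.

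Markers of quiescent stellate cells did not fall together with the collagen and contractile genes. Of 13 tested, 5 rose and 3 fell, and the list median of 0.40 turned to −0.09 with library totals (2 higher and 4 lower). Vipr1, a peptide receptor gene, and Angptl6 rose (1.01 ± 0.18 and 1.96 ± 0.27). Bambi, the gene of a decoy receptor for TGF-beta, fell (−0.92 ± 0.25).

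Growth factor genes that act on myofibroblasts fell in part. Of 26 genes of TGF-beta and PDGF signalling, 18 fell. Ctgf, a matricellular protein induced by both TGF-beta and YAP, was at 3.16, 2.6 and 3.75 CPM in siSTAT3 and 73.1, 85.3 and 132 CPM in siCntrl. The groups were 19.5-fold apart at their nearest values, and the change was −4.94 ± 0.34. Tgfb3 fell (1.88 ± 0.946 against 14.1 ± 2.59 CPM, −2.89 ± 0.38), as did Ltbp2, a protein of the microfibrils (−3.62 ± 0.49), the PDGF ligand gene Pdgfb (−1.54 ± 0.37) and the receptor genes Pdgfrb and Pdgfra (−1.82 ± 0.21 and −1.48 ± 0.21). Smad7, the inhibitor induced by TGF-beta, fell by 1.0. Of 13 targets of YAP and TEAD, the effectors of the Hippo pathway that sense stretch and cell contact, 10 fell, among them Cyr61 (−2.41 ± 0.28) and Ajuba (−2.45 ± 0.24). Of 7 ligand genes for the EGF and MET receptors, 6 fell, such as Hbegf (−2.68 ± 0.38), Tgfa (−1.38 ± 0.17) and Hgf, the hepatocyte growth factor made by stellate cells (−2.18 ± 0.26), while Erbb4, a neuregulin receptor gene, rose (3.28 ± 0.495 against 0.216 ± 0.0752 CPM, 3.91 ± 0.39). With library totals the 17 genes of this last list gave 1 higher and 11 lower, in place of 2 and 6.

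Most genes of the tubulin list and of the annexin and S100 list fell in siSTAT3. Of 16 tubulin and microtubule genes, 13 fell and 1 rose. Tubb2a, a beta-tubulin, was at 23, 20.1 and 22.9 CPM in siSTAT3 and 593, 394 and 380.5 CPM in siCntrl. The lowest siCntrl value was 16.5 times the highest siSTAT3 value, a change of −4.37 ± 0.25 (edgeR adjusted p = 4.6e-08). Tubb6 fell by 3.63, Tuba1a by 3.03, Tubb4b by 2.39, and Tubb5 fell by 2.26. Reads of such closely related tubulin genes may have been shared in counting. Of 20 annexin and S100 genes, which bind membranes and calcium, 11 fell and 3 rose. Anxa2 was at 18.3, 21 and 21.4 CPM in siSTAT3 and 397, 356 and 363 CPM in siCntrl and its binding partner S100a10 at 38.6, 50.8 and 35.2 CPM in siSTAT3 and 343, 296 and 262 CPM in siCntrl. Neither overlapped between groups, and the changes were −4.2 ± 0.18 and −2.85 ± 0.20. Anxa5, S100a6 and S100a11 fell by 2.57, 3.14 and 3.21, and S100a1, a form of muscle and liver, rose (146 ± 16.1 against 68.6 ± 6.87 CPM, 1.09 ± 0.15). Krt8 and Krt18, the keratin pair of hepatocytes, fell together, Krt8 at 272 ± 22.3 against 2208 ± 445 CPM (−3.02 ± 0.20) and Krt18 by 2.83. Of 11 tested genes of a fetal liver list 5 fell and 1 rose. The list median of −1.01 was 0.01 with DESeq2's Wald test, where 14 of its genes had values. Peg3, an imprinted gene of that list, fell (8.62 ± 5.01 against 29.8 ± 11.8 CPM, −1.79 ± 0.42).

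Genes of cell division fell, in a number that rested on single libraries. Of 33 tested, 19 fell, and this count was 8 without siCntrl 2, 10 without siSTAT3 1, 11 without siSTAT3 2, 11 with limma voom and 11 with no filter. Mcm2, a subunit of the helicase that opens DNA for replication, was at 2.9, 3.29 and 3.13 CPM in siSTAT3 and 21.6, 39.4 and 13.8 CPM in siCntrl. The groups did not overlap, siCntrl 2 was highest and siCntrl 3 lowest of its group, and the change was −3.0 ± 0.41. Cdk1, the kinase gene of mitosis, fell by 1.57 (3.39 ± 0.175 against 10.1 ± 3.33 CPM). Mki67, the proliferation marker, was at 2.98 ± 1.71 against 7.28 ± 5.81 CPM and did not pass. Of 20 p53 targets and death genes, 13 fell and 1 rose. Cdkn1a, the inhibitor p21 that halts the cycle, was at 2.1, 1.72 and 0.676 CPM in siSTAT3 and 86.3, 44.6 and 73.3 CPM in siCntrl. It fell 44.3-fold, with every siSTAT3 value below every siCntrl value. The p53 targets Mdm2 and Bax fell by 0.61 and 0.81, and Bbc3, the death gene PUMA, rose (10.9 ± 3.64 against 3.04 ± 0.665 CPM, 1.84 ± 0.24).

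Immediate early genes, which respond within minutes to stimulation, were lower: 14 of 19 tested fell. Egr1 was at 2.42, 7.95 and 5.16 CPM in siSTAT3 and 84, 61.7 and 104 CPM in siCntrl. Values did not overlap, and the change was −4.01 ± 0.35. Jun, the AP-1 subunit, fell by 1.76, Fosl1 by 4.46 and Klf4 by 2.8. Tnfrsf12a, the receptor gene for TWEAK that hepatocytes express on injury, fell (14.3 ± 3.78 against 182 ± 25.5 CPM, −3.67 ± 0.20).

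Protein folding genes of the endoplasmic reticulum fell in most cases. Of 21 tested, 13 fell and 2 rose. Hspa5, the chaperone BiP, was at 893, 608 and 556 CPM in siSTAT3 and 1728, 1173 and 1555 CPM in siCntrl, a change of −1.12 ± 0.24. Its lowest siCntrl value lay above its highest siSTAT3 value. Sdf2l1, Hyou1 and Pdia4, further members of that machinery, fell by 1.69, 1.27 and 1.21, and Calr, calreticulin, by 1.0. Of 16 cytosolic and mitochondrial heat shock genes, 7 fell and 2 rose, with 0 higher and 13 lower under library totals. Hsp90aa1, the inducible form of HSP90, fell by 1.51.

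Most genes that make serine, glycine and asparagine fell, while most genes that break amino acids down rose. Of 8 synthesis genes, 7 fell and 1 rose. Their summed level was instead higher in siSTAT3, at 221.2 to 243.7 CPM against 184.7 to 219.4 CPM in siCntrl. Psat1, which makes phosphoserine, was at 0.493, 0.977 and 0.584 CPM in siSTAT3 and 86.6, 89.97 and 67.1 CPM in siCntrl. The lowest siCntrl value was 68.7 times the highest siSTAT3 value, and the change was −6.9 ± 0.25 (edgeR adjusted p = 1.07e-09). Mthfd2, a folate enzyme gene of mitochondria in embryonic and dividing cells, fell by 3.76, and Asns, asparagine synthetase, by 4.34. Shmt2, which turns serine into glycine in mitochondria, rose (217 ± 12.1 against 65.5 ± 5.4 CPM, 1.73 ± 0.12). Of the 13 tested stress targets of ATF4, the transcription factor that drives these synthesis genes, 8 fell. Ddit3, the stress factor CHOP, was at 12.2 ± 4.78 against 15.3 ± 1.06 CPM and did not pass. With library totals Ddit3 was called lower (edgeR adjusted p = 0.0386).

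Nitrogen disposal genes rose. Of 8 urea cycle genes, 7 rose, led by Asl, argininosuccinate lyase (1031 ± 131 against 92.5 ± 31.7 CPM, 3.48 ± 0.25), and Otc, ornithine transcarbamylase (2.99 ± 0.27). Ass1, argininosuccinate synthase, was at 3693, 2481 and 3517 CPM in siSTAT3 and 505, 274 and 656 CPM in siCntrl, without overlap. Cps1, which fixes ammonia at the start of the cycle, rose by 1.32. Of 13 glutamine and glutamate genes 11 rose and 2 fell. The liver glutaminase Gls2 rose (792 ± 69.3 against 84.4 ± 37.3 CPM, 3.23 ± 0.36). The glutamine transporter gene Slc38a3 rose by 3.03 and Gpt, alanine aminotransferase, by 2.87. Glud1, glutamate dehydrogenase, was among those that fell (−0.63 ± 0.16). Of 34 genes of amino acid breakdown, 29 rose, with a median of 1.79 and 22 higher and 2 lower under library totals. Along tyrosine breakdown, Hpd, an early dioxygenase, rose by 4.85, Hgd by 2.53 and Fah, which completes the path, by 3.04. Hpd was at 3812, 4759.6 and 4577 CPM in siSTAT3 and 122, 126 and 206 CPM in siCntrl. The lowest siSTAT3 value was 18.5 times the highest siCntrl value. In the methionine cycle Mat1a, the liver form of the enzyme that makes S-adenosylmethionine, rose (4312 ± 156 against 439 ± 111 CPM, 3.3 ± 0.23), and Gnmt, which uses it up, and Ahcy, which clears the product, rose by 4.37 and 2.98. Prodh of proline breakdown and Sardh of sarcosine breakdown rose by 4.25 and 3.62.

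Genes that clear drugs and toxins rose broadly. Of 40 tested conjugation genes (phase II), 33 rose and 1 fell, with a median of 1.75. Ugt1a1, which conjugates bilirubin, rose (112 ± 56.4 against 18.6 ± 3.84 CPM, 2.59 ± 0.37), with Ugt2b1 (2.7 ± 0.33) and Ugt3a2 (3.24 ± 0.22). Of the glutathione transferases, Gsta3 was at 1927, 1861 and 1962 CPM in siSTAT3 and 280.4, 282 and 435 CPM in siCntrl, without overlap, Gstm3 rose by 4.74 and Gstm1 by 2.42. Gsta1, the member that fell, was at 1.75 ± 0.162 against 6.25 ± 3.58 CPM (−1.84 ± 0.37). The sulfotransferase gene Sult2a1, which acts on bile acids and steroids, was at 224, 880.1 and 779.7 CPM in siSTAT3 and 16.4, 50.5 and 35.2 CPM in siCntrl. Here siSTAT3 1 lay well under the other siSTAT3 libraries and still above all siCntrl libraries. Nnmt, which methylates nicotinamide, rose by 1.8. Of 12 carboxylesterases 9 rose, such as Ces3a (714 ± 427 against 60.2 ± 36.9 CPM, 3.57 ± 0.65) and Ces1g (3.55 ± 0.33), and of 5 flavin monooxygenases 4. Among the latter, Fmo5 was at 1551, 998 and 1263 CPM in siSTAT3 and 436, 406 and 466 CPM in siCntrl and rose by 1.54, without overlap. Copies within the Ugt1a, Gsta, Gstm, Sult2a and Ces1 families are alike enough that their reads may have been split or shared.

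The P450 genes rose with their partners: 35 of 40 rose and 1 fell. Por, the reductase that supplies electrons to all microsomal P450 enzymes, rose (897 ± 179.6 against 246 ± 30.4 CPM, 1.87 ± 0.18). Reads of near-identical P450 copies may have been shared in counting. The receptor genes that govern them rose too, with Nr1i3 (CAR) at 236, 369 and 237 CPM in siSTAT3 and 40.5, 45.2 and 25.5 CPM in siCntrl, without overlap. Nr1i2 (PXR) rose by 1.49 and Ahr, the dioxin receptor gene, by 1.57. Of 19 alcohol and aldehyde dehydrogenase genes, 15 rose and 2 fell. Adh1 rose (3348 ± 267 against 1257 ± 146 CPM, 1.41 ± 0.25), as did Aldh2 of acetaldehyde clearance (1.67 ± 0.13) and Aldh1l1 of the folate cycle (3.33 ± 0.23). Aldh3b1 fell (3.26 ± 0.729 against 13.1 ± 1.96 CPM, −2.01 ± 0.22).

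Bile acid genes rose from synthesis to export. Of 11 synthesis genes 9 rose and 1 fell, and of 12 transporters 9 rose. Akr1d1, the reductase of the steroid ring, rose by 3.63 and Baat, which joins bile acids to taurine, by 2.45. Abcb11, the export pump into bile, was at 459.7, 623 and 504 CPM in siSTAT3 and 122, 71.8 and 92.5 CPM in siCntrl, a change of 2.47 ± 0.24, with no overlap. Nr1h4, the bile acid receptor FXR, rose by 1.01 (145 ± 14.2 against 72 ± 17.2 CPM).

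Lipid genes moved in both directions. Plin2, the coat protein of lipid droplets, was at 225, 291 and 221 CPM in siSTAT3 and 2921, 2326 and 1957 CPM in siCntrl. Every siCntrl value was at least 6.74 times every siSTAT3 value, and the change was −3.29 ± 0.25. Cidec, which fuses droplets, fell by 4.44. The uptake genes Fabp4 and Cd36 fell by 2.46 and 1.41, while Pnpla2, the lipase that empties droplets, rose (143 ± 5.11 against 68.7 ± 4.08 CPM, 1.06 ± 0.19). Of 20 such genes 7 fell and 2 rose, and 1 higher and 13 lower with library totals. Among desaturases, Scd1, the liver form, rose (1140.2 ± 346 against 245 ± 107 CPM, 2.22 ± 0.38) and Scd2, the form of brain and fetal liver, fell (10.3 ± 1.27 against 29.4 ± 5.43 CPM, −1.51 ± 0.21). Dgat2, which makes triglyceride, rose by 1.87. Of 20 genes of fatty acid and triglyceride synthesis 11 rose and 2 fell, and 9 higher and 3 lower with library totals. In cholesterol synthesis Hmgcs1 and Cyp51 fell by 1.15 and 1.84, within a list in which 8 of 21 rose and 8 fell. That split was not firm: 5 fell without siCntrl 1, siCntrl 3 or siSTAT3 2, 5 rose without siSTAT3 1, and library totals gave 4 higher and 11 lower. Of 25 genes of fatty acid oxidation and ketone synthesis 11 rose and 1 fell, but 4 higher and 6 lower with library totals, and their median of 0.33 turned to −0.15. Phyh, which starts the breakdown of branched fatty acids, rose (1605 ± 154 against 424 ± 91.4 CPM, 1.92 ± 0.19).

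Of 17 apolipoprotein and lipoprotein genes, 10 rose and 3 fell. Apoa2, of high-density lipoprotein, was at 14062, 20244 and 14560.2 CPM in siSTAT3 and 2419, 1999 and 3059.5 CPM in siCntrl. The lowest siSTAT3 value was 4.6 times the highest siCntrl value, and the change was 2.71 ± 0.26. Apoe, which carries remnants back to the liver, rose (41938 ± 4623 against 11456 ± 307 CPM, 1.87 ± 0.17), with Apoc1 (1.97 ± 0.25) and the hepatic lipase gene Lipc (2.42 ± 0.26). Apoa4, the apolipoprotein linked to triglyceride load, was at 322, 178 and 236 CPM in siSTAT3 and 1833, 1581 and 822 CPM in siCntrl and fell by 2.53. Mttp, which loads lipid onto nascent particles, fell as well (212 ± 24.9 against 500.3 ± 46.2 CPM, −1.24 ± 0.16).

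Enzymes that exist in an adult liver form and a widespread form were compared as groups. Of 13 adult liver forms, 11 rose. Of 19 widespread or fetal forms 9 fell and 1 rose, and 0 higher and 15 lower with library totals. Fbp1 of glucose synthesis rose (1792 ± 164 against 446 ± 171 CPM, 2.01 ± 0.27). Pkm, the pyruvate kinase of muscle and dividing cells, was at 20.7, 25.6 and 24.8 CPM in siSTAT3 and 82.1, 136 and 121 CPM in siCntrl, a change of −2.25 ± 0.22. Ldha, lactate dehydrogenase, was at 549, 701 and 565 CPM in siSTAT3 and 1820.2, 1814 and 1818 CPM in siCntrl, with siCntrl values nearly alike and all above siSTAT3. The hexokinase Hk2, the phosphofructokinase Pfkp and the glycogen phosphorylase Pygb fell by 1.35, 2.36 and 1.74.

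Coagulation genes rose in most cases and complement genes in part. Of 18 coagulation genes 13 rose and 1 fell. F7, the gene of the clotting factor that meets tissue factor, was at 211, 268 and 216 CPM in siSTAT3 and 50.9, 48.9 and 56.3 CPM in siCntrl, without overlap. F10 and the anticoagulants Proc and Serpinc1 rose by 1.64, 1.55 and 1.66, so genes for clotting and for its restraint rose together. Of 17 complement genes 7 rose, among them Mbl2, the mannose-binding lectin (966 ± 78.6 against 147 ± 45.5 CPM, 2.72 ± 0.22), and C8b of the membrane attack complex (1.57 ± 0.33). With library totals all 35 gave 17 higher and 4 lower.

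Growth hormone and IGF genes mostly rose. Of 15 tested 11 rose and 3 fell. Igfals, the carrier that keeps IGF1 in blood, was at 264, 263 and 228 CPM in siSTAT3 and 31.3, 17.9 and 28.6 CPM in siCntrl, a change of 3.28 ± 0.26, with groups apart. Igf1 itself rose by 1.21 (1057 ± 48.7 against 458 ± 107 CPM) and the binding protein gene Igfbp2 by 2.2. Cux2, a female-biased target of growth hormone in mouse liver, rose (63.2 ± 16.4 against 2.44 ± 1.61 CPM, 4.69 ± 0.55), and so did Bcl6, its male-biased counterpart (29.9 ± 11 against 10.4 ± 2.35 CPM, 1.52 ± 0.32). Mup3, a major urinary protein gene, was at 6283, 4856 and 5829 CPM in siSTAT3 and 2757, 1146 and 2307 CPM in siCntrl, a change of 1.45 ± 0.25. Its family is made of near-identical copies, and 15 of the 18 family symbols in the table were too low to test, so the reads of Mup3 may include those of others. The steroid enzyme genes Hsd11b1, which reactivates glucocorticoid, and Akr1c6 rose by 1.66 and 2.59, and Sgk1, a glucocorticoid-induced kinase gene, fell (16.4 ± 7.22 against 43.2 ± 23.3 CPM, −1.4 ± 0.38).

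Secreted regulators from the liver moved both ways, 9 of 18 rising and 7 falling, and 4 higher and 7 lower with library totals. Angptl4, which inhibits lipoprotein lipase in fasting, fell by 1.14 (96.5 ± 23.3 against 213 ± 21.9 CPM). Fgl1, a hepatocyte product induced by interleukin 6, was at 479, 875 and 573 CPM in siSTAT3 and 1619, 1923 and 1898 CPM in siCntrl and fell by 1.5. Fgf21, the fasting and stress hormone gene, fell (0.472 ± 0.27 against 3.08 ± 1.64 CPM, −2.71 ± 0.64).

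In iron handling the transferrin receptor genes parted: Tfr2, the sensor of hepatocytes, rose (469 ± 65.9 against 206 ± 14.3 CPM, 1.19 ± 0.14) and Tfrc, the uptake receptor, fell (136 ± 44.5 against 243 ± 19.2 CPM, −0.84 ± 0.20). The ferritin chains parted as well, Fth1 falling (2462 ± 127 against 4744 ± 428 CPM, −0.95 ± 0.14) and Ftl1 rising (4229 ± 349.8 against 2089.8 ± 398 CPM, 1.02 ± 0.17). Of 15 iron genes 5 rose and 5 fell, and 3 higher and 6 lower with library totals, where the median of 0.39 turned to −0.11. Among 21 antioxidant genes 8 rose and 7 fell, and 6 higher and 12 lower with library totals. Cat, the catalase of peroxisomes, was at 3008, 2149 and 3235 CPM in siSTAT3 and 557, 442 and 382 CPM in siCntrl, and Gpx1, a glutathione peroxidase gene, rose by 2.91. Gpx3, the secreted peroxidase, was at 12.6, 15.9 and 9.06 CPM in siSTAT3 and 30.6, 80.04 and 50.3 CPM in siCntrl and fell by 2.1. Srxn1, a direct NRF2 target, fell by 1.48.

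Transcription factors that define hepatocytes rose in part. Of 24 tested 11 rose and 1 fell, 5 of the rises over 2-fold, and library totals gave 5 higher and 3 lower, with the median of 0.37 turning to −0.12. Hnf4a, the central hepatocyte factor, was at 694, 439 and 597 CPM in siSTAT3 and 577, 415 and 439 CPM in siCntrl. Its groups overlapped and it did not pass (0.27 ± 0.20, edgeR adjusted p = 0.279), with −0.21 under library totals. Cebpa rose instead and was at 562, 534 and 519 CPM in siSTAT3 and 168, 106 and 186 CPM in siCntrl, a change of 1.81 ± 0.20 without overlap. Foxa3 was the member that fell (62.7 ± 6.89 against 105 ± 14.8 CPM, −0.75 ± 0.19). Among genes of the Wnt pathway that sets liver zones, Axin2, a general target of beta-catenin, rose (6.24 ± 1.14 against 2.25 ± 0.774 CPM, 1.47 ± 0.32), as did Notum, an inhibitor made by pericentral cells (39.3 ± 4.7 against 3.58 ± 1.57 CPM, 3.45 ± 0.44). Ctnnb1, the beta-catenin gene, fell (140.5 ± 39.7 against 237 ± 32.4 CPM, −0.75 ± 0.20), and Wnt9b, a ligand of central vein endothelium, fell by 1.52. Of 15 such genes 6 rose and 3 fell, and 5 higher and 7 lower with library totals, under which, as with no filter and without siSTAT3 3, the median of 0.02 was below 0.

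Clock genes moved in both directions. Of 18 tested 11 rose and 3 fell, and 7 higher and 5 lower with library totals. Clock, which with Bmal1 switches on the other clock genes, was at 12.1, 5.04 and 8.66 CPM in siSTAT3 and 31.7, 21 and 21.8 CPM in siCntrl and fell by 1.52. Arntl, the gene of Bmal1, fell by 3.5, and by 2.92 on the log2 scale without siCntrl 1. Per3, a repressor of that pair, was at 59.97, 98.1 and 75.6 CPM in siSTAT3 and 7.42, 15.6 and 16.9 CPM in siCntrl, and Dbp, an output gene that peaks in the day, was at 137, 192 and 178 CPM in siSTAT3 and 20.8, 36.4 and 43.9 CPM in siCntrl. Both were separate between groups, with changes of 2.55 ± 0.30 and 2.33 ± 0.27. Tef, Cry2 and Nr1d2 rose by 2.08, 1.44 and 1.08. The labels used here do not state the time of day at which livers were taken; whether it differed between groups was not tested.

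**Figure D4:**
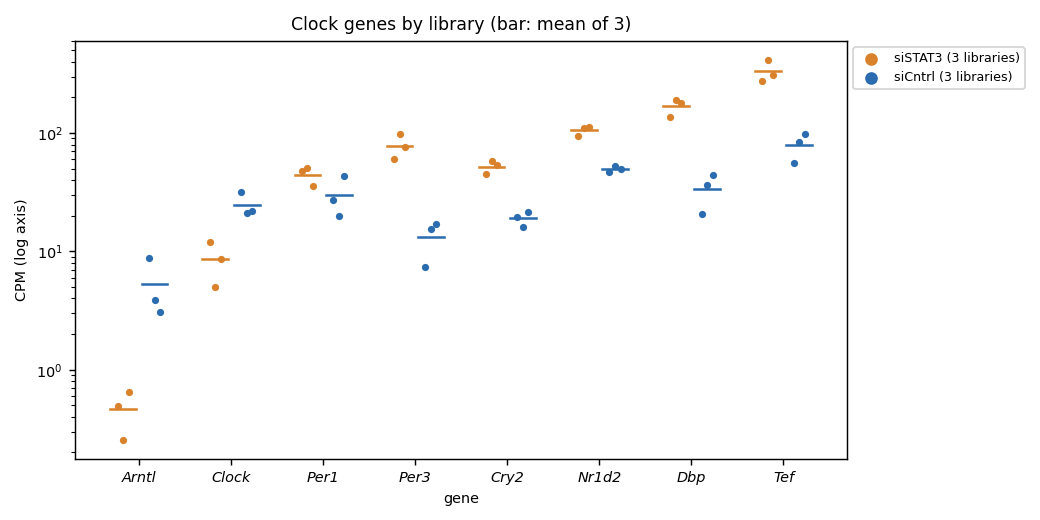
CPM in each library (vertical axis, logarithmic) of 8 clock genes in siSTAT3 (orange) and siCntrl (blue), 1 point per library with a bar at the mean of 3. Arntl and Clock are lower and Per3, Cry2, Dbp, Tef and Nr1d2 higher in siSTAT3, without overlap, and Per1, which did not pass, overlaps.

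Genes for respiration in mitochondria rose by a modest size. Of 22 nuclear genes 18 rose and 1 fell, 6 of the rises over 2-fold. Sdhb of complex II was at 407, 403 and 409 CPM in siSTAT3 and 138, 113 and 143 CPM in siCntrl, a change of 1.63 ± 0.13. Its siSTAT3 values were nearly alike, and all lay above the siCntrl values. Ndufv1 of complex I, Cyc1 of complex III and Atp5o of the ATP synthase rose by 1.18, 1.17 and 1.16. The mitochondrial gene mt-Co1 rose as well (23830.1 ± 4991 against 11872 ± 3210.1 CPM, 1.01 ± 0.22). The member that fell was Cycs, cytochrome c (94 ± 17.2 against 152 ± 16.5 CPM, −0.69 ± 0.16).

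Immune and vascular markers were counted list by list, and not every list moved one way. Of 15 markers of monocytes and scar-associated macrophages 12 fell. Itgam, the integrin CD11b of myeloid cells, was at 2.14, 1.11 and 1.63 CPM in siSTAT3 and 12.3, 16.3 and 12.6 CPM in siCntrl, and Lgals3, galectin 3, fell by 3.23 and Cd9 by 3.2. The values of Itgam did not overlap (−3.07 ± 0.29). Of 15 Kupffer cell markers 2 rose and 4 fell, but 7 fell and 0 rose without siCntrl 1 or with library totals, 3 fell without siCntrl 2, and 5 fell and 0 rose without siSTAT3 3. The share that fell was close to the 23.4% of all genes. Marco, a scavenger receptor gene that fell, was at 6.9, 3.29 and 7.31 CPM in siSTAT3 and 23.6, 38.9 and 70.9 CPM in siCntrl, without overlap (−2.93 ± 0.54). Timd4, a receptor gene of resident Kupffer cells, was at 9.37, 8.41 and 12.6 CPM in siSTAT3 and 3.6, 7.44 and 5.69 CPM in siCntrl, a rise of 0.86. Its call ended with library totals, with the replicate block and without siCntrl 1, siCntrl 3 or siSTAT3 3 (edgeR adjusted p from 0.055 to 0.37). Of 13 neutrophil markers 7 fell, with the chemokine receptor gene Cxcr2 at 0.256 ± 0.185 against 3.11 ± 0.753 CPM (−3.57 ± 0.50).

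Of 16 sinusoidal endothelial markers 8 fell, and the count was 3 without siCntrl 2 or siSTAT3 2, 4 without siSTAT3 1 and 5 without siCntrl 3. Lyve1, a hyaluronan receptor gene of these cells, was at 4.25, 0.926 and 4.95 CPM in siSTAT3 and 9.73, 11.5 and 13.3 CPM in siCntrl, a change of −1.77 ± 0.47, with siSTAT3 2 the lowest. Stab2, the scavenger receptor gene that defines them, was at 30.3 ± 6.69 against 26.9 ± 2.85 CPM and did not pass, with a value of −0.33 under library totals in place of 0.17. Of 23 tested T, NK and B cell markers 2 rose and 3 fell, and 0 rose without siCntrl 1 or siSTAT3 3, with no filter or with library totals. The summed level of the T and NK markers among them was 5.81 to 10.8 CPM in siSTAT3 and 6.13 to 9.64 CPM in siCntrl. Pancreas markers summed to 16.9 to 20.7 CPM in siSTAT3 and 5.82 to 6.65 CPM in siCntrl, nearly all of it Cela1, an elastase gene (19.3 ± 2.07 against 6.15 ± 0.439 CPM), and the fat marker Adipoq to 0 to 0.0616 CPM in siSTAT3 and 0 CPM in siCntrl.

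**Figure D5:**
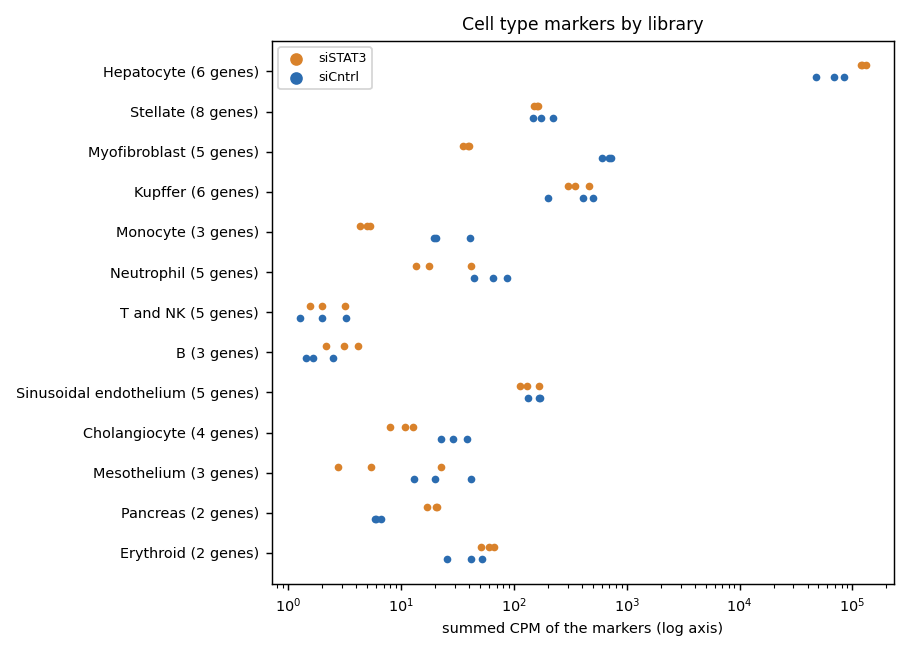
Summed CPM (horizontal axis, logarithmic) of the marker genes of each cell type in each library, siSTAT3 (orange) and siCntrl (blue), 1 point per library. The hepatocyte sums are the highest and the myofibroblast sums the farthest apart between groups, with siSTAT3 lower, while the Kupffer, sinusoidal endothelial, T and NK and B cell sums overlap.

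The summed level of the 5 myofibroblast markers Acta2, Tagln, Myl9, Cnn1 and Col1a1 was 35.4 to 39.8 CPM in siSTAT3 and 599 to 726 CPM in siCntrl, and that of the 8 stellate markers 151 to 164 CPM in siSTAT3 and 149 to 223 CPM in siCntrl. Beside the fall of most listed matrix genes, the monocyte sum was 4.36 to 5.25 CPM in siSTAT3 and 19.6 to 40.6 CPM in siCntrl. The neutrophil sum was 13.5 to 41.9 CPM in siSTAT3 and 44.2 to 87 CPM in siCntrl. The hepatocyte sum was 119746 to 132154 CPM in siSTAT3 and 47793 to 84729 CPM in siCntrl. Most of it was albumin, at 86597 to 105621 CPM in siSTAT3 and 35365 to 66476 CPM in siCntrl. Of its 6 markers 4 rose. How far a change in the share of these cells enters the gene changes above was not tested.

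By number of genes, inflammatory messengers fell on balance. Of 31 chemokine and cytokine genes 14 fell and 5 rose, and 4 higher and 22 lower with library totals. The summed chemokine level was instead higher, at 555.4 to 632.4 CPM in siSTAT3 and 330.5 to 475.2 CPM in siCntrl. The sum of the whole list overlapped, at 938.1 to 1060 CPM in siSTAT3 and 935.5 to 1037 CPM in siCntrl. Ccl2, which recruits monocytes, fell (0.376 ± 0.174 against 4.83 ± 1.85 CPM, −3.69 ± 0.56), as did Ccl6 (−2.61 ± 0.28) and Cxcl14 (−3.81 ± 0.30). Cxcl12, the stromal chemokine, was at 453, 430.4 and 492 CPM in siSTAT3 and 174, 217 and 236 CPM in siCntrl and rose by 1.13 without overlap, and Cxcl9, an interferon-induced attractant of T cells, rose by 2.31. Il18 and Il1rap, of interleukin 1 family signalling, rose by 1.37 and 1.79. Of 20 interferon-stimulated genes 7 rose and the rest did not pass, but 3 higher and 4 lower with library totals. Ifit3 was at 10.03, 13.1 and 13.5 CPM in siSTAT3 and 3.64, 4.78 and 3.56 CPM in siCntrl, without overlap, and Mx2 and Ifit1 rose by 1.71 and 1.31. Of 15 genes of antigen presentation 7 rose, 11 without siCntrl 2, and 2 higher and 2 lower with library totals. The immunoproteasome genes Psmb8 and Psmb10 rose by 1.11 and 1.37. Among 14 sensors of foreign nucleic acid 2 rose and 4 fell, and 0 higher and 9 lower with library totals, with Tmem173, the gene of STING, lower (2.13 ± 0.57 against 7.77 ± 2.21 CPM, −1.87 ± 0.28).

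An siRNA acts through the RNA interference machinery of the cell. Of 14 RNA interference and RNase H genes 4 rose and 2 fell, each by less than 2-fold, and this share called was close to the 45.7% of all genes. These counts were not firm: 2 rose and 0 fell with the compared libraries alone, 1 rose and 0 fell without siSTAT3 2, 2 rose and 1 fell without siCntrl 2 or with no filter, 1 fell without siCntrl 1, siCntrl 3 or siSTAT3 3, and 0 higher and 6 lower with library totals. Ago2, the argonaute that cuts target mRNA, was at 27.2, 20.5 and 26.6 CPM in siSTAT3 and 36, 34 and 30.1 CPM in siCntrl, a change of −0.43 ± 0.14. Its call ended without siCntrl 1, siCntrl 2 or siSTAT3 2 and with the compared libraries alone (edgeR adjusted p = 0.0711, 0.0556, 0.0714 and 0.0555).

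Lysosomal genes moved both ways, 5 of 17 rising and 6 falling, with 1 higher and 11 lower under library totals and 3 rises without siSTAT3 3. Gla, alpha-galactosidase, fell (9.15 ± 1.65 against 55.8 ± 6.29 CPM, −2.61 ± 0.16), Ctss, the cathepsin of antigen-presenting cells, fell by 1.45, and Ctsh, cathepsin H, rose by 0.98.

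Genes in none of the lists that changed most were Upp2 upward and Fam83a among those downward. Upp2, uridine phosphorylase 2 of liver, was at 919, 944 and 1200.4 CPM in siSTAT3 and 2.16, 1.95 and 3.78 CPM in siCntrl. It rose 388-fold (8.6 ± 0.40, edgeR adjusted p = 1.31e-08), and the nearest values of the groups were 243-fold apart. Cyp2g1, a P450 gene outside the P450 list, rose by 6.42, Gbp11, a guanylate-binding protein gene, by 5.14, and Csrp3, a muscle LIM protein gene, by 4.57. Going down, Fst, follistatin, which binds activin, was at 0.349, 0.18 and 0.399 CPM in siSTAT3 and 10.5, 17.5 and 20.6 CPM in siCntrl, a change of −5.71 ± 0.42 without overlap. Nid1, nidogen, which links laminin to type IV collagen, fell (13.3 ± 5.11 against 272 ± 61.5 CPM, −4.36 ± 0.29). Fam83a fell by 5.99 and Tnfrsf23 fell by 5.29.

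By amount of mRNA, the gains were led by plasma protein genes. Albumin and Apoe gained most CPM, followed by Apoa2, and the abundant P450 gene Cyp2e1 and Ttr, transthyretin, were also among the 10 largest gains (9380.2 ± 607 against 86.2 ± 8.9 CPM and 11398 ± 2389 against 5744 ± 1387 CPM). The call of albumin and of Ttr ended with library totals (edgeR adjusted p = 0.109 and 0.0824). Outside the acute phase, Fth1 and Plin2 were among the 10 largest losses. Abundant genes that did not pass included Serpina3k, a serine protease inhibitor gene (5882 ± 1873 against 8277 ± 3356 CPM), Fabp1, the liver fatty acid-binding protein (4546 ± 568 against 4949.7 ± 434 CPM), and Pzp, a broad protease inhibitor of mouse plasma (4853 ± 718 against 5252 ± 622 CPM). All 3 were called lower with library totals.

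Whether the siRNA comparison differed from the mASO comparison was tested gene by gene. With 15720 genes tested for the difference of the 2 changes, edgeR called 1 gene lower in the siRNA comparison, 0.00636% of those tested, and 0 genes higher, while 1161 genes had an unadjusted p under 0.05. DESeq2's Wald test called 14 higher and 44 lower, and limma voom 0 and 2. The single gene was Hacl1, an enzyme that shortens branched fatty acids in peroxisomes. It was at 216, 195 and 205 CPM in siSTAT3 and 135, 88.3 and 139.8 CPM in siCntrl, a change of 0.76 ± 0.18 in the siRNA comparison (edgeR adjusted p = 0.0036; 0.189 with library totals) against 2.84 in the mASO comparison, a difference of −2.08 (edgeR adjusted p = 0.0216). The call rested on 5 of the libraries, siSTAT3 2 and 3, mASO Scrbl 2 and 3 and mASO STAT3 3, since 0 genes were called lower without any one of them. A missing call does not show that the 2 comparisons were alike.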

How the data were processed

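Libraries were made from liver RNA with a stranded mRNA kit, per the labels' protocols. Per the submitters' processing notes, TopHat and Cufflinks were used. Their versions, the counting tool and the build are not given in the sources used. The deposited table holds read counts per gene symbol from the authors, whole numbers over 25540 symbols and 12 libraries.

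All 12 libraries entered 1 fit in edgeR 4.0.16 (R 4.3.3), with TMM factors, edgeR's filter (minimum count 10, minimum total 15; 15720 genes kept, 9820 removed), a group design with 8 residual degrees of freedom and the quasi-likelihood test. P-values were adjusted by Benjamini-Hochberg over all genes, with a threshold of 0.05. The biological coefficient of variation was 0.247. Replicates differed by more than sampling noise, and none was counted as a repeat. The gene lists and members were chosen with earlier results of these data known. Genes were named by a rule: Stat3, the first 6 measured and the 3 most changed of each list in each direction, the 10 most changed outside the lists, the 10 largest gains and losses of CPM, the 10 most abundant genes that were not called, and the gene called between the siRNA and mASO comparisons. The rule gave more genes than are printed, so the printed genes are a choice among its members. Of 272 genes named, 199 followed it and 73 were chosen after their values were seen. Alternatives were DESeq2 1.42.0, its size factors, limma voom 3.58.1, library totals, the 6 libraries alone, no filter, a stricter filter (1 CPM in 3 libraries), a replicate block and leaving out each library. The scripts were tested on simulated data. Motif positions were read from RefSeq promoter sequences.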

Additional observations from a re-analysis of the deposited data

Results flagged for a closer look

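Hacl1, the peroxisomal enzyme gene that shortens branched fatty acids, was the gene for which the siRNA and the mASO comparison differed by the test of the difference itself. It was at 216, 195 and 205 CPM in siSTAT3 and 135, 88.3 and 139.8 CPM in siCntrl, and the difference, siRNA change minus mASO change, was −2.08 on the log2 scale (edgeR adjusted p = 0.0216), with a rise in both comparisons. The call was lost without siSTAT3 2, siSTAT3 3, mASO Scrbl 2, mASO Scrbl 3 or mASO STAT3 3, each left out singly, and under the replicate block.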

How the results depend on the processing

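Of 272 named genes, 255 kept their direction and their side of the threshold under the alternatives run. With library totals 1655 genes rose and 7266 fell, and over 2-fold 907 rose and 4134 fell, because that scaling leaves out the composition factors. Leaving out single libraries gave 1511 to 1773 rises and 1908 to 2315 falls over 2-fold, and 2934 to 3267 rises and 3046 to 3400 falls in all. Stat3 ranged from −0.115 to 0.0823 over the left-out libraries, turning to 0.0181 without siCntrl 2 and 0.0823 without siSTAT3 1, and was −0.54 with library totals. Library totals turned Hnf4a to −0.21 and Stab2 to −0.335. The difference between the siRNA and the mASO comparison had 0 to 3 genes higher and 0 to 8 lower over the left-out libraries, 14 and 44 with DESeq2's Wald test, 1 and 2 with no filter, 2 lower with limma voom or the stricter filter and 0 with the replicate block. The causes were not tested. In the siRNA comparison the replicate block gave 3328 rises and 3431 falls. Same-numbered libraries of the 2 groups had correlations of 0.187, 0.14 and −0.11 between their deviations from the group means. For siCntrl 3 and siSTAT3 2 the correlation was 0.112. Deviations within a group of 3 cancel out, so these correlations do not decide whether the numbers pair the libraries. There were 3 libraries a group, with 39844158 to 67791159 counts each. Whether depth or the spread between replicates limited the calls was not tested.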
